A study of Mus musculus with 16 samples.

Results

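Genes of sinusoidal endothelial cells and of hepatic stellate cells were followed in liver RNA of *Trim28MommeD9/+* and *Trim28+/+* mice. The set holds 36 genes chosen by name as markers of these cells and of the matrix around them, 19 for the sinusoidal endothelium and 17 for stellate cells and matrix. Of these 36 genes, 31 could be tested, among 7302 genes tested on the array in all. The livers came from male FVB/NJ mice of 4 weeks. Mice labelled Trim28MommeD9/+ carry on 1 of their copies of *Trim28* a splice-site mutation that arose in a mutagenesis screen, and mice labelled Trim28+/+ carry none. The mutation was found by its effect on a GFP reporter transgene in red blood cells, and it is carried by every cell of the body, not by the cells followed here alone. RNA was read on 16 Illumina MouseRef-8 v2.0 bead arrays, of which 7 were labelled Trim28MommeD9/+ and 9 Trim28+/+. The methods describe 4 mice per genotype with technical replicates, the labels do not say which arrays share a mouse, and p-values over arrays are therefore too small.

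Liver sinusoids are capillaries without a full basement membrane, lined by endothelial cells with open pores that take up waste macromolecules from the blood through scavenger and lectin receptors such as the stabilins. Stellate cells lie between this lining and the hepatocytes, store vitamin A, and are the main source of collagen when the liver scars. Collagens, proteoglycans and small matrix-binding proteins form the thin scaffold between both cell types. Trim28 (also known as Kap1) is a co-repressor that brings histone methylation and deacetylation to the targets of zinc finger proteins.

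Values are bead intensities, background-corrected and quantile normalized, on a log2 scale, and a gene was called at an adjusted p under 0.05 in limma. Before normalization, mean intensities ran from 205 to 270 on the Trim28MommeD9/+ arrays and from 273 to 344 on the Trim28+/+ arrays, with 9186 to 10262 probes detected per array. The constant that had been subtracted from each array in the authors' processed table divided the arrays into a low-background set of 8 (37.6 to 42.7), which holds every Trim28MommeD9/+ array and Trim28+/+ replicate 1, and a high-background set of 8 (48.8 to 56.2), which holds the other Trim28+/+ arrays. A difference within the low-background set is therefore the mean of 7 Trim28MommeD9/+ arrays minus Trim28+/+ replicate 1 alone. *Trim28* was lower on the Trim28MommeD9/+ arrays (8.53, 8.62 and 8.76 as lowest, median and highest log2 intensity) than on the Trim28+/+ arrays (8.63, 9.05 and 9.39), and the log2 fold change was -0.44 with a standard error (SE) of 0.09 (adjusted p = 0.00277 from limma). Trim28+/+ replicate 1 was the highest of all arrays for *Trim28*.

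Of the 31 genes tested, 4 were higher in Trim28MommeD9/+ livers (*Col4a2*, *Pecam1*, *Col4a1* and *Egfl7*), 2 were lower (*Col3a1* and *Ptprb*), and 25 did not pass the test. Over all 7302 genes tested, 10.4% were called higher and 11.4% lower, and the calls among the 31 sinusoidal and stellate genes were near these shares. The median log2 fold change was 0.04 over the 17 endothelial genes and 0.04 over the 14 stellate and matrix genes, against 0.05 over all genes. In 22 of the 31 genes the log2 fold change was under 0.2 in size. In RNA from whole liver, fewer cells of a type and less RNA per cell cannot be told apart.

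**Figure D1:**
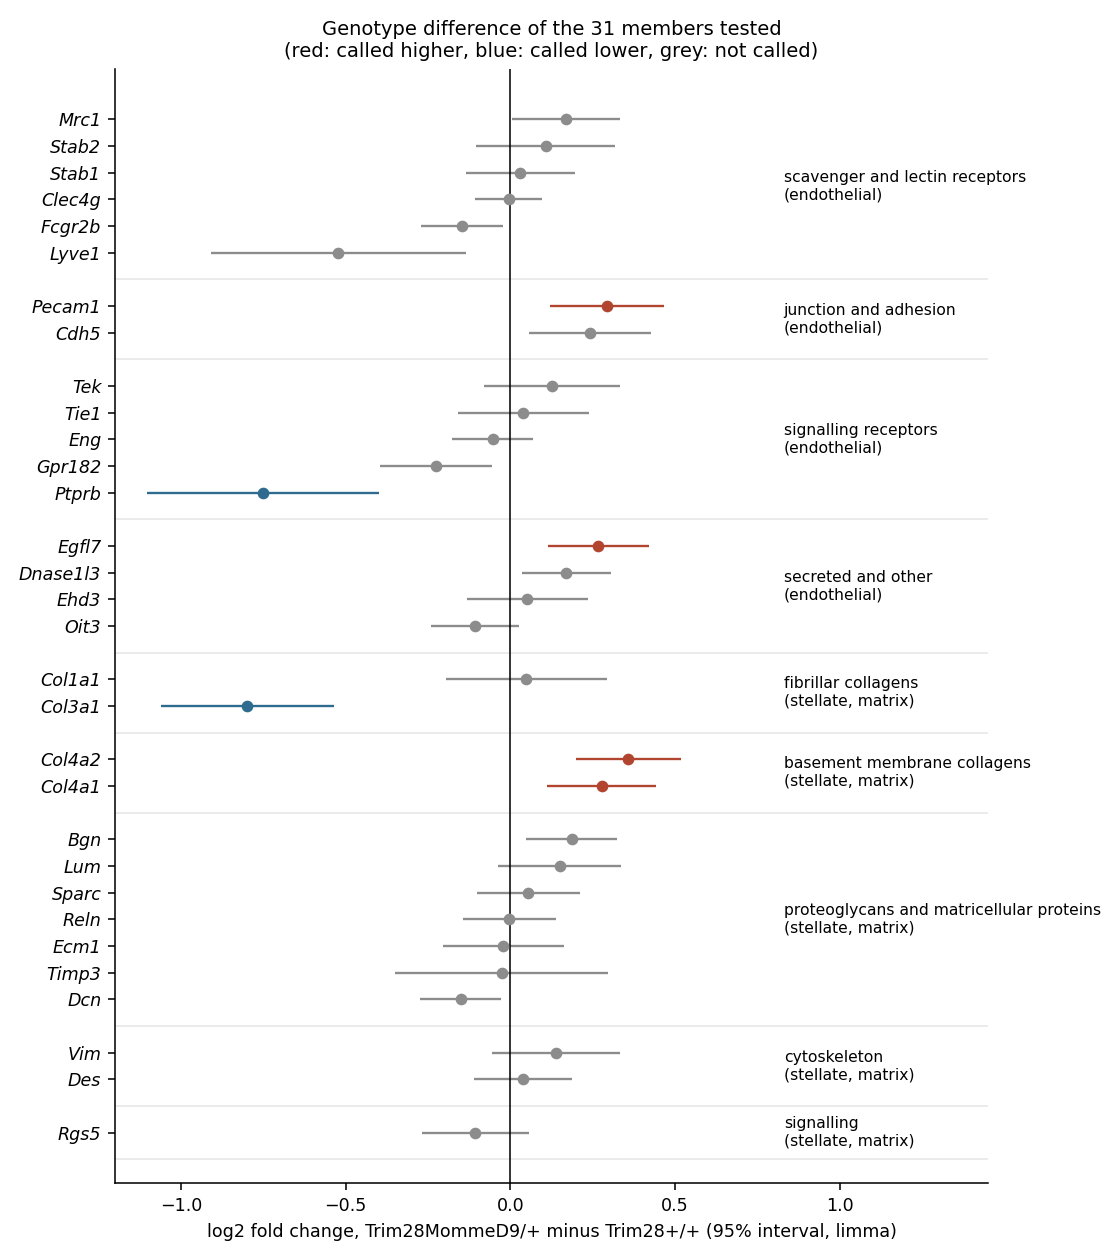
Log2 fold change (x axis, Trim28MommeD9/+ minus Trim28+/+) of the 31 genes tested, by role, with bars for the 95% interval from limma. Red points mark the 4 genes called higher, blue points the 2 called lower and grey points the 25 not called, most of which lie within 0.2 of 0.

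The basement membrane collagens were the only role group in which each of its genes passed the test. *Col4a1* and *Col4a2* encode the chains that assemble, in a ratio of 2 to 1, into the type IV collagen network of basement membranes. They are neighbours that are read in opposite directions on chromosome 8. In the RefSeq annotation of GRCm38.p6 *Col4a1* starts at position 11312826 on the minus strand and *Col4a2* at position 11312805 on the plus strand, so that 22 bases belong to the transcripts of both. This stretch is shown because both genes that share it were called in the same direction. It is read 5′ to 3′ on the plus strand (chr8:11312801-11312830), with the shared bases in capitals.
Between *Col4a2* and *Col4a1*: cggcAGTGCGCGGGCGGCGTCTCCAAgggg
The letters GGGCGG stand inside the shared bases. On either strand they occur in 35.7% of the 32851 RefSeq promoter windows (250 bases before to 50 after a start). CCCTCCCC, found in 10.8% of all windows, occurs once in the 78 bases that the windows of both genes share, and neither window holds TATAAA, found in 13.6%. Starts that face another start on the opposite strand within 100 bases made up 4.88% of all windows.

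*Col4a2* gave 9.34, 9.36 and 9.50 as lowest, median and highest log2 intensity on the 7 Trim28MommeD9/+ arrays and 8.69, 9.07 and 9.25 on the 9 Trim28+/+ arrays. Every Trim28MommeD9/+ array lay above every Trim28+/+ array. The log2 fold change was 0.36 (SE 0.08, adjusted p = 0.00363 from limma), which is 1.28-fold. Groups that did not overlap in this direction were found in 1.29% of all genes tested, and *Col4a2* was the 1 such gene among the 31. *Col4a1* gave 9.66, 9.81 and 10.05 against 9.24, 9.57 and 9.79. Here 4 of 7 Trim28MommeD9/+ arrays lay above all Trim28+/+ arrays and the groups overlapped. Its log2 fold change was 0.28 (SE 0.08, adjusted p = 0.0183 from limma), which is 1.21-fold. On Trim28+/+ replicate 7 both genes were at their lowest. Trim28+/+ replicate 1 was the highest Trim28+/+ array for *Col4a1* (9.79) and among the highest for *Col4a2* (9.23), and within the low-background set the log2 differences were 0.05 for *Col4a1* and 0.17 for *Col4a2*.

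Of the fibrillar collagens, 1 was called, in the opposite direction to this pair. *Col3a1*, the type III collagen of reticular fibres, gave 4.48, 4.58 and 4.84 on the Trim28MommeD9/+ arrays and 4.96, 5.37 and 6.00 on the Trim28+/+ arrays. It was detected on 0 of 7 Trim28MommeD9/+ arrays and on 8 of 9 Trim28+/+ arrays, so that it entered the test through the Trim28+/+ arrays alone. The groups did not overlap, as in 1.11% of all genes tested in this direction, and *Col3a1* was the 1 such gene among the 31. Set against the dimmest detected probe per array, it was at least 1.16-fold lower in Trim28MommeD9/+ livers (fitted log2 fold change -0.80, SE 0.12, adjusted p = 0.00107 from limma). Trim28+/+ replicate 1 was the lowest Trim28+/+ array (4.96), and the log2 difference within the low-background set was -0.35. The other probe of *Col3a1* was detected on 0 of 7 Trim28MommeD9/+ and 0 of 9 Trim28+/+ arrays (means of 4.47 and 4.50). The call therefore rests on 1 dim probe. *Col1a1*, a chain of type I collagen, ran from 5.79 to 6.58 against 5.71 to 6.33, with a log2 fold change of 0.05 (95% interval -0.20 to 0.29). *Col1a2*, the partner chain of type I collagen, was not above background on any array.

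**Figure D2:**
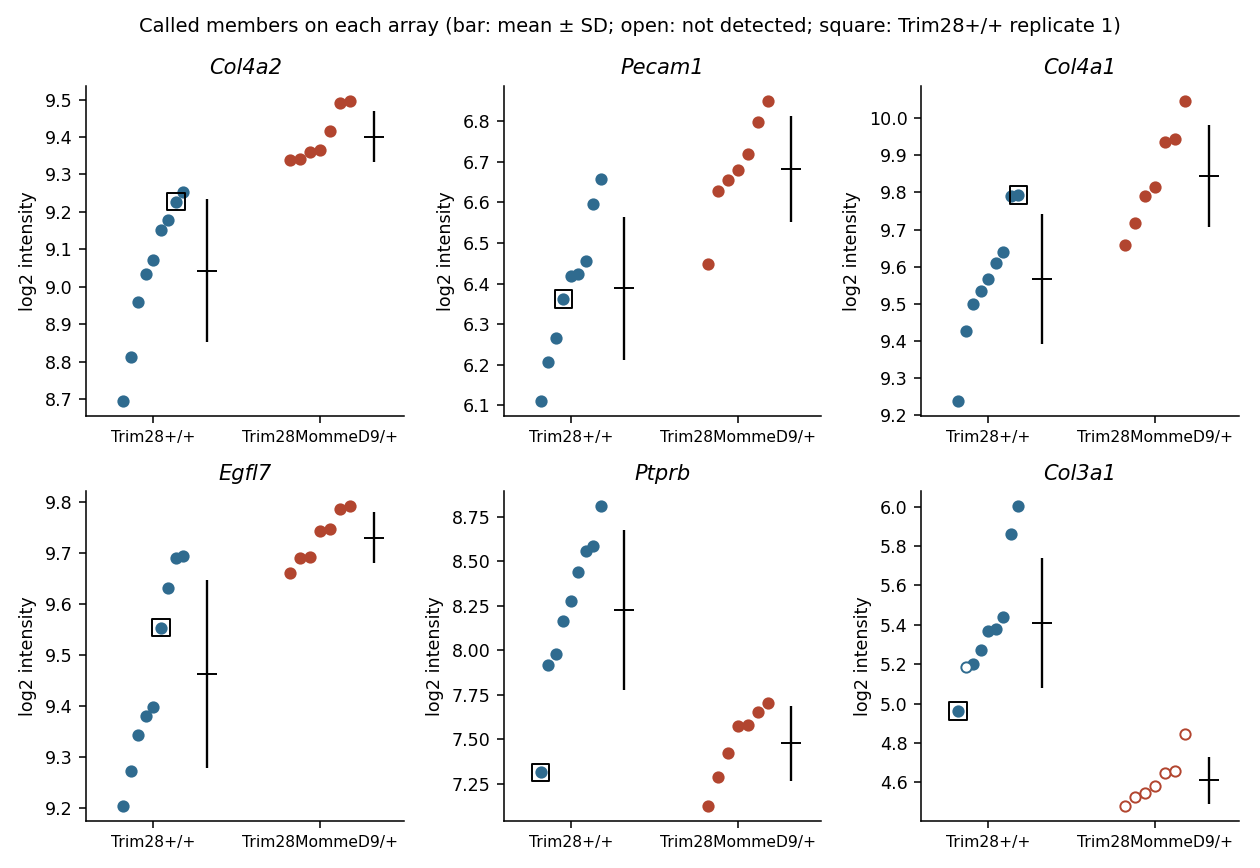
Normalized log2 intensity (y axis, a separate scale per gene) of the 6 called genes on each array, by genotype, with bars for the mean and SD. Open points were not detected and the square marks Trim28+/+ replicate 1. *Col4a2* and *Col3a1* separate the genotypes, and for *Ptprb* Trim28+/+ replicate 1 lies at 7.31 among the Trim28MommeD9/+ arrays.

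None of the 7 proteoglycans and matricellular proteins passed the test over genes. *Bgn* (biglycan, a small proteoglycan that binds collagen) was nearest to it, with 10.07, 10.24 and 10.35 on the Trim28MommeD9/+ arrays against 9.72, 10.09 and 10.19 on the Trim28+/+ arrays. There 5 of 7 Trim28MommeD9/+ arrays lay above all Trim28+/+ arrays, and the log2 fold change was 0.19 (SE 0.07, adjusted p = 0.0517 from limma). In the fit over all 10291 probes the same *Bgn* probe was called higher (adjusted p = 0.04999 from limma). *Lum* (lumican, another collagen-binding proteoglycan) had a log2 fold change of 0.15 (95% interval -0.04 to 0.34). *Sparc*, a matricellular protein that binds collagen, had 0.05, and its other probe 0.03. *Reln* (reelin, a secreted glycoprotein made by stellate cells in liver) ran from 9.64 to 9.97 on the Trim28MommeD9/+ arrays and from 9.53 to 9.99 on the Trim28+/+ arrays, with a log2 fold change of 0.00 (95% interval -0.15 to 0.14). *Ecm1*, a secreted matrix glycoprotein, had -0.02 (95% interval -0.21 to 0.16). *Timp3*, an inhibitor of matrix metalloproteinases that is itself held in the matrix, had -0.03 (95% interval -0.35 to 0.30), 0.42 within the low-background set, and the widest spread of the proteoglycans and matricellular proteins.

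*Dcn* (decorin, a proteoglycan that binds collagen and transforming growth factor beta) was read by a pair of probes that differed. The brighter probe gave 11.30, 11.47 and 11.59 on the Trim28MommeD9/+ arrays against 11.41, 11.62 and 11.74 on the Trim28+/+ arrays, a log2 fold change of -0.15 (SE 0.06, adjusted p = 0.0738 from limma). The other probe gave 8.35, 8.53 and 8.97 against 8.65, 9.20 and 9.48. With each probe tested on its own, where 11.1% of all 10291 probes were called higher and 12.2% lower, that probe was lower with a log2 fold change of -0.55 (SE 0.12, adjusted p = 0.00308 from limma). On 5 of 7 Trim28MommeD9/+ arrays it lay below every Trim28+/+ array. Trim28+/+ replicate 1 was the lowest Trim28+/+ array for both probes, at 11.41 and 8.65.

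The remaining stellate genes gave small differences or no signal. *Des* (desmin, the intermediate filament used to mark stellate cells) had a log2 fold change of 0.04 (95% interval -0.11 to 0.19). *Vim* (vimentin, another intermediate filament of mesenchymal cells) had 0.14 (95% interval -0.06 to 0.33). *Rgs5*, a regulator of G protein signalling found in pericytes, had -0.11 (95% interval -0.27 to 0.05). *Hgf*, the growth factor that stellate cells supply to hepatocytes, did not reach a detection p-value under 0.01 on any array. *Pdgfrb*, the receptor for platelet-derived growth factor, was detected on 1 Trim28MommeD9/+ array and on 0 Trim28+/+ arrays, so that a pair of defining stellate cell genes could not be tested here.

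Among the endothelial genes, *Pecam1* and *Egfl7* were higher in Trim28MommeD9/+ livers. *Pecam1* (CD31, an adhesion protein of endothelial junctions) gave 6.45, 6.68 and 6.85 on the Trim28MommeD9/+ arrays and 6.11, 6.42 and 6.66 on the Trim28+/+ arrays. On 4 of 7 Trim28MommeD9/+ arrays it lay above all Trim28+/+ arrays, with a log2 fold change of 0.29 (SE 0.08, adjusted p = 0.0168 from limma) and 0.32 within the low-background set. A dimmer probe of *Pecam1*, annotated to another transcript, had a log2 fold change of -0.05 (SE 0.09, adjusted p = 0.757 from limma). *Cdh5* (VE-cadherin, the cadherin of the same junctions) ran from 5.49 to 5.87 against 5.07 to 5.67, and its log2 fold change of 0.24 (SE 0.09, adjusted p = 0.0575 from limma) missed the threshold. Both junction genes thus had positive values, and 1 of them was called.

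*Egfl7*, a protein that endothelial cells secrete into the vessel wall, gave 9.66, 9.74 and 9.79 on the Trim28MommeD9/+ arrays and 9.20, 9.40 and 9.69 on the Trim28+/+ arrays. The Trim28MommeD9/+ arrays lay close together (SD 0.05, against 0.18 for Trim28+/+), with 4 of 7 above all Trim28+/+ arrays. The log2 fold change was 0.27 (SE 0.07, adjusted p = 0.0142 from limma), and 0.18 within the low-background set. Both other probes of *Egfl7*, annotated to other transcripts, had log2 fold changes of 0.12 and were not called. Of the other secreted and intracellular genes, *Dnase1l3* (a secreted DNase) had 0.17 (SE 0.06, adjusted p = 0.0631 from limma), with 6 of 7 Trim28MommeD9/+ arrays above all Trim28+/+ arrays. *Ehd3* (an endocytic recycling protein) had 0.05 and *Oit3* (a secreted protein of liver) -0.11, and neither was called.

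*Ptprb* was the 1 endothelial gene called lower. It encodes VE-PTP, a phosphatase that removes phosphate from Tek (Tie2) and holds VE-cadherin in the junction. It gave 7.12, 7.57 and 7.70 on the Trim28MommeD9/+ arrays and 7.31, 8.28 and 8.81 on the Trim28+/+ arrays. The log2 fold change was -0.75 (SE 0.17, adjusted p = 0.00494 from limma), which is 1.68-fold lower. Only 2 of 7 Trim28MommeD9/+ arrays lay below every Trim28+/+ array, because Trim28+/+ replicate 1 stood at 7.31 while the other Trim28+/+ arrays began at 7.92. Without Trim28+/+ replicate 1 the log2 fold change was -0.86 (adjusted p = 0.000126 from limma). All Trim28+/+ arrays left in that fit are in the high-background set, so that genotype and background set cannot be told apart in it. Within the low-background set the log2 difference turned to 0.16.

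None of the other signalling receptors tested was called. *Tek*, the angiopoietin receptor, had a log2 fold change of 0.13 (95% interval -0.08 to 0.33), and *Tie1*, its partner receptor, had 0.04 (95% interval -0.16 to 0.24). *Eng* (endoglin, a co-receptor for bone morphogenetic proteins) had -0.05 (95% interval -0.18 to 0.07). *Gpr182*, an atypical chemokine receptor of sinusoidal endothelium, had -0.23 with its brighter probe (SE 0.08, adjusted p = 0.0520 from limma) and 0.02 with the other. *Kdr* (VEGF receptor 2, a defining endothelial gene) and *Bmp2*, a ligand by which endothelial cells control hepcidin in hepatocytes, were not above background on any array.

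None of the 6 scavenger and lectin receptors was called in the test over genes. *Clec4g* (LSECtin, a lectin of sinusoidal endothelium) gave 11.70, 11.83 and 11.87 on the Trim28MommeD9/+ arrays and 11.67, 11.82 and 11.98 on the Trim28+/+ arrays, with a log2 fold change of 0.00 (95% interval -0.11 to 0.10). The stabilins, which clear hyaluronan and modified proteins, had 0.03 (*Stab1*, 95% interval -0.14 to 0.20) and 0.11 (*Stab2*, 95% interval -0.10 to 0.32). *Mrc1* (the mannose receptor, also found on macrophages) had 0.17 (SE 0.08, adjusted p = 0.124 from limma). *Lyve1*, a hyaluronan receptor, gave 4.90, 5.14 and 5.53 against 5.21, 5.44 and 6.62. It was detected on 3 of 7 Trim28MommeD9/+ arrays and on 9 of 9 Trim28+/+ arrays, with a log2 fold change of -0.52 (SE 0.18, adjusted p = 0.0507 from limma) and -0.03 within the low-background set. In the fit over all probes this probe was called lower (adjusted p = 0.0478 from limma).

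*Fcgr2b*, the inhibitory Fc receptor that removes immune complexes in the sinusoids, also differed between its probes. Unlike those of *Dcn*, its tested probes are annotated to different transcripts. The brighter probe ran from 8.39 to 8.64 against 8.46 to 8.79, with a log2 fold change of -0.15 (SE 0.06, adjusted p = 0.0821 from limma). A dimmer probe gave 6.19, 6.36 and 6.61 on the Trim28MommeD9/+ arrays and 6.67, 6.75 and 6.97 on the Trim28+/+ arrays. Every Trim28MommeD9/+ array lay below every Trim28+/+ array there, Trim28+/+ replicate 1 (6.69) included. Groups did not overlap in this direction in 1.11% of all genes tested, and the share over all probes was not counted. With each probe tested on its own the dimmer probe was lower, with a log2 fold change of -0.37 (SE 0.07, adjusted p = 0.00171 from limma). Counted by probe, 39 of the 48 probes of the 36 genes were tested, and 5 were called higher and 5 lower, the probes of *Bgn* and *Lyve1* among them. Over all 10291 probes 11.1% were called higher and 12.2% lower, and the counts here were near these shares.

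**Figure D3:**
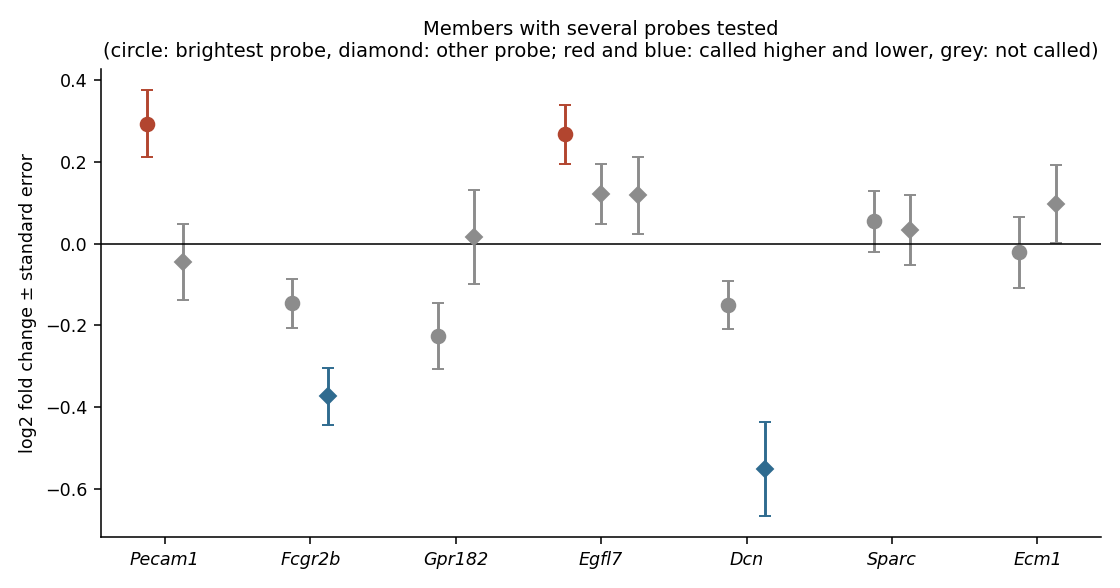
Log2 fold change with its standard error (y axis) of each tested probe of the 7 genes with more than 1 tested probe, from the fit over all probes. Circles are the brightest probe of a gene and diamonds the others. For *Fcgr2b* and *Dcn* only the dimmer probe was called lower, and for *Pecam1* and *Egfl7* only the brightest was called higher.

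Several of these calls rest on how the arrays are grouped and scaled. With arrays paired within genotype by their correlation, as a stand-in for the unlabelled technical replicates, *Col3a1* kept its call (adjusted p = 0.0279 from limma). *Col3a1* had entered the test through the Trim28+/+ arrays alone, so that the kept call adds no support. In the same fit the adjusted p from limma was 0.0767 for *Col4a2*, 0.121 for *Col4a1*, 0.0809 for *Pecam1*, 0.0729 for *Egfl7* and 0.0599 for *Ptprb*. With the background sets as a block, 0 of the 31 genes and 3 of all 7302 genes were called, and 12 of the 31 changed sign. When arrays were scaled to the median of all probes in place of quantile normalization, the median of all genes moved from 0.05 to -0.19, with 0.479% of all genes called higher and 34.6% lower. Of the 31 genes, 0 were then called higher and 12 lower. In that scaling *Col4a2* had a log2 fold change of 0.09, *Col4a1* 0.03, *Pecam1* 0.03 and *Egfl7* 0.01, each above the median of all genes, while *Ptprb* (-1.01, adjusted p = 0.000176 from limma) and *Col3a1* (-0.87, adjusted p = 7.01e-05 from limma) lay below it. Scaled to the median of the probes detected on every array, *Col4a2* had 0.35 (adjusted p = 0.0038 from limma) and *Col4a1* 0.29 (0.0124). *Pecam1* had 0.29 (0.0230), *Egfl7* 0.27 (0.0170), *Ptprb* -0.75 (0.0065) and *Col3a1* -0.62 (0.0054), so that each call was kept. Genotype and background set cannot be told apart in either scaling.

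**Figure D4:**
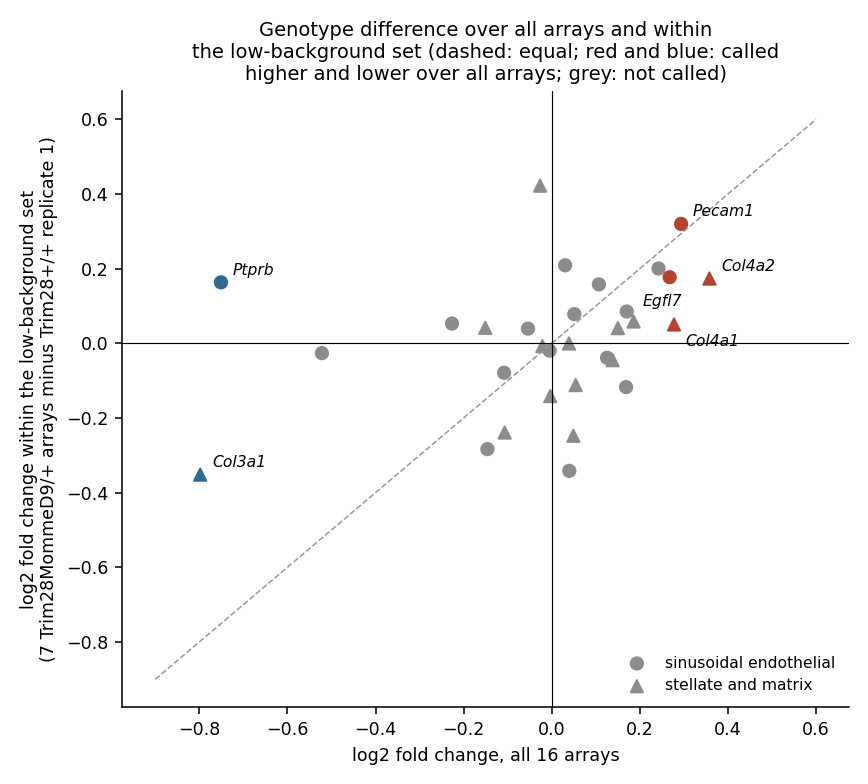
Log2 fold change over all 16 arrays (x axis) against the log2 difference within the low-background set (y axis, 7 Trim28MommeD9/+ arrays minus Trim28+/+ replicate 1) for the 31 genes, with circles for endothelial and triangles for stellate and matrix genes. *Pecam1* lies near the dashed line of equal values (0.29 and 0.32), and *Ptprb* lies on opposite sides of 0 (-0.75 and 0.16).

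Taken as a mean per array, the genes of each cell type overlapped between genotypes. The mean level of the 17 endothelial genes, each centred on its mean over the 16 arrays, ran from -0.11 to 0.08 on the Trim28MommeD9/+ arrays and from -0.05 to 0.08 on the Trim28+/+ arrays. For the 14 stellate and matrix genes it ran from -0.08 to 0.08 and from -0.09 to 0.03. The SD over arrays was larger in Trim28MommeD9/+ than in Trim28+/+ for 4 of the 31 genes (*Tek*, *Col1a1*, *Timp3* and *Ecm1*), and for 2160 of all 7302 genes. The spread of the remaining genes was larger among the Trim28+/+ arrays. All Trim28MommeD9/+ arrays lie in the low-background set, while the Trim28+/+ arrays span both sets. Genotype and background set therefore cannot be told apart in this spread. The cause of the larger spread was not tested.

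Genes that work with these markers were read from further lists, whose counts stand against the 10.4% called higher and 11.4% called lower over all genes. With the background sets as a block 0 genes of any of these lists were called. Of 24 other matrix proteins tested, 5 were higher and 0 lower, the clearest being the syndecan *Sdc3* (log2 fold change 0.48, adjusted p = 0.00181 from limma), *Col6a1* (0.28, adjusted p = 0.00515 from limma), *Col6a2* (0.34, adjusted p = 0.00684 from limma) and *Col14a1* (0.32, adjusted p = 0.0193 from limma). Within the low-background set *Sdc3* had 0.35, *Col6a1* 0.09, *Col6a2* 0.26 and *Col14a1* 0.19. With scaling to the median of all probes, 0 of the 24 were higher and 6 lower. Type VI collagen lies at the border between basement membranes and fibrils. The mean of these 24 genes ran from -0.03 to 0.15 on the Trim28MommeD9/+ arrays and from -0.18 to 0.02 on the Trim28+/+ arrays, with Trim28+/+ replicate 1 the highest of the latter. Of 15 genes of collagen processing and matrix turnover, 1 was higher (*Pcolce*, which helps to cleave procollagen, 0.39) and 0 were lower, against 0 and 6 in that scaling. Of 19 other stellate and myofibroblast genes, 1 was higher (*Mfap4*, a microfibril protein, 0.43) and 1 lower (*Ednrb*, an endothelin receptor, -0.39), against 0 and 4 in that scaling.

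Of 28 other endothelial genes tested, 4 were higher and 3 lower, and 0 were higher and 12 lower with scaling to the median of all probes. *Vwf* (von Willebrand factor, more typical of large vessels than of sinusoids) had a log2 fold change of 0.47 and *Il1a*, a cytokine, 0.36, the latter detected on 7 of 7 Trim28MommeD9/+ and 2 of 9 Trim28+/+ arrays. *Wnt2*, a ligand that central endothelial cells give to hepatocytes, had -0.66 and *Cav1*, the coat protein of caveolae, -0.58. *Cav1* was detected on 1 of 7 Trim28MommeD9/+ and 8 of 9 Trim28+/+ arrays, so that *Il1a* and *Cav1* each entered the test only through the group in which they were higher. Within the low-background set *Vwf* had 0.30, *Il1a* 0.25, *Wnt2* -0.13 and *Cav1* 0.17. Of 23 vascular ligands and their receptors and targets, 1 was higher (*Id1*, a target of bone morphogenetic proteins, 0.60) and 2 were lower (*Angpt2*, the angiopoietin that competes for Tek, -0.42, and the receptor *Notch1*, -0.41). Within the low-background set *Id1* had 0.95, *Angpt2* -0.47 and *Notch1* 0.10. With scaling to the median of all probes 0 of the 23 were higher and 11 lower.

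Markers of Kupffer cells and hepatocytes differed between the groups of arrays in the test over all arrays. Of 12 Kupffer cell markers tested, 7 were higher and 1 lower, where 10.4% of all genes were called higher and 11.4% lower. With scaling to the median of all probes 1 was higher and 3 lower. *Folr2* (0.58), *Fcna* (0.51) and *Vsig4* (0.44) were higher. Within the low-background set *Folr2* had 0.67, *Fcna* 0.35 and *Vsig4* 0.26. *Cd163* was at least 1.06-fold lower (adjusted p = 0.00145 from limma), with a log2 difference of -0.18 within the low-background set. It was detected on 0 of 7 Trim28MommeD9/+ and 6 of 9 Trim28+/+ arrays, so that it entered the test through the Trim28+/+ arrays alone. The mean level of the Kupffer cell markers ran from -0.03 to 0.17 on the Trim28MommeD9/+ arrays and from -0.15 to 0.13 on the Trim28+/+ arrays. Of 13 hepatocyte markers, 0 were higher and 5 lower, and 0 and 10 in that scaling. Those with the smallest p were *Alb* (-1.21), *Hnf4a* (-0.55), *Serpina1a* (-0.80) and *Cyp2e1* (-0.21), which had 0.36, -0.14, 0.22 and -0.17 within the low-background set. The *Alb* probe was dim (means of 5.39 and 6.60) and was detected on 5 of 7 Trim28MommeD9/+ and 9 of 9 Trim28+/+ arrays. Its value is limited by low signal. The mean of the hepatocyte markers ran from -0.19 to -0.07 against -0.16 to 0.27, with Trim28+/+ replicate 1 at -0.16, inside the Trim28MommeD9/+ range. Of the other lists, 2 lymphocyte, 2 neutrophil and 2 mesothelial markers could be tested with 0 called, 4 erythroid markers with 1 lower (*Hbb-bt*, -0.73, detected on 1 of 7 and 7 of 9 arrays, and -0.01 within the low-background set), and 0 of 5 cholangiocyte markers on the array. *Hbb-bt*, too, entered the test only through the group in which it was higher. The part of the cell types of all these lists in the differences above was not tested.

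**Figure D5:**
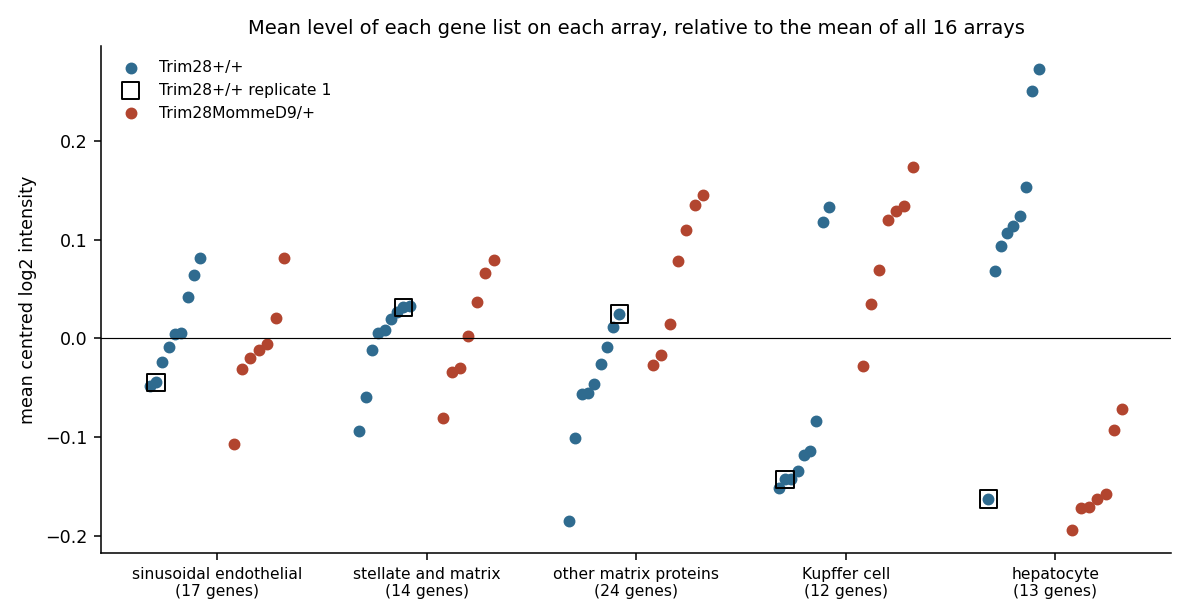
Mean centred log2 intensity (y axis) of 5 gene lists on each array, by genotype, with a square for Trim28+/+ replicate 1. The endothelial and the stellate and matrix genes overlap between genotypes, and for the hepatocyte list Trim28+/+ replicate 1 lies at -0.16 among the Trim28MommeD9/+ arrays.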

How the data were processed

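Total liver RNA was hybridized to bead arrays by the authors, and arrays were grouped by the genotype in the labels. For each probe and array the authors deposited an intensity value, neither background-subtracted nor normalized, each with a detection p-value against negative controls, and a second table of intensity values with a constant subtracted and the arrays scaled. The methods name BeadStudio and GenomeStudio and the labels GenomeStudio, and for both the version is not given in the sources used here.

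Of 25697 probes in the first table, 23978 have 1 gene symbol and 1719 have none. Background correction, quantile normalization and the log2 step were done by limma's neqc (limma 3.58.1, R 4.3.3, offset 16). Probes detected (p-value under 0.01) on 3 arrays or more were kept (10291), and the brightest probe of each symbol was used (7302 genes). Genotypes were compared over all genes by limma (linear model, intensity trend), with Benjamini-Hochberg adjustment over all genes and a call at an adjusted p under 0.05. The model was tested on simulated data with independent arrays. That simulation held no arrays sharing a mouse and no background sets, so it does not bear on either limit. For a gene detected on no array of a group a bound is given, set against the dimmest detected probe per array. Precision is limited by the number of arrays.

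The genes and lists were chosen with earlier results of these data known. Every gene of the set is described, called genes with the values of each group, and of each further list up to 4 called genes with the smallest p. Alternatives were the normalization, the filter, the authors' values, all probes, other fits, blocks and leaving out each array. Promoter windows are from RefSeq (GRCm38.p6), and 24 of the 36 genes matched. Other analyses used Python 3.11.15, pandas 2.3.3 and Matplotlib 3.10.9.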

Additional observations from a re-analysis of the deposited data

Results flagged for a closer look

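*Bgn* on Trim28+/+ replicate 9 (log2 intensity 9.72) lay apart from the other Trim28+/+ arrays, the nearest of which was at 9.96. The gap was 0.507 of the whole range of the group. It was the 1 such array among 62 groups of arrays examined, and chance alone sets apart about 1 in 20 groups.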

How the results depend on the processing

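Among the 31 genes 4 were called higher. The count was 7 with array weights, 2 with the replicate block, 1 at an adjusted p under 0.01, and 0 with the background sets as a block, with presumptive technical pairs and with scaling to the median of all probes. The 2 genes called lower became 12 with scaling to the median of all probes, 5 with all probes, 4 with the authors' processed values, 1 with detection required on every array, 1 with presumptive technical pairs and 0 with the background sets as a block. Leaving out 1 array gave 4 to 6 genes higher and 2 to 5 lower. The lower count was 5 without Trim28+/+ replicate 1 or 3 and 4 without Trim28+/+ replicate 4 or Trim28MommeD9/+ replicate 3, and *Lyve1* and *Gpr182* were called in each of these. The 6 calls passed in each of 16 such fits. Leaving out 1 array neither separates genotype from background set nor accounts for arrays that share a mouse. The endothelial median moved to -0.21 and the stellate median to -0.19 with scaling to the median of all probes, and the stellate median to -0.024 with the authors' values. Of values that passed the test in either setting, signs turned for *Stab1* (-0.23, scaling to the median of all probes) and *Ptprb* (0.16, background sets as a block). The cause was not tested. Replicate numbers do not pair the arrays: same-numbered arrays correlated from -0.394 to 0.479, 2 of 7 best with their own number. With the replicate block, *Egfl7* (adjusted p = 0.113 from limma) and *Col4a1* (0.104) lost their calls. Low signal limits *Col3a1*, *Lyve1*, *Tie1* and *Cdh5*, which were not detected on every array.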
